A study of Mus musculus with 10 samples.

Results

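The genes described here are 7 developmental sarcomere genes, Actc1, Mybph, Myh3, Myh8, Myl4, Tnnt2 and Ankrd1, out of 19938 genes measured in mouse gastrocnemius, the large calf muscle. They were chosen by their part in developing muscle, with Actc1 and Mybph selected on their measured difference between F2 and F1 in earlier results of these data, and whether their difference in F0 also played a part is not known. Each was represented by 1 probe set whose only gene symbol in the platform annotation was that of the gene. All 7 were among the 11963 genes kept by the filter on low signals. Myh3, with a mean log2 signal of 3.271, was just inside the filter value of 3.235, and the means of the others lay between 5.159 for Tnnt2 and 12.45 for Actc1.

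Developing skeletal muscle builds its first sarcomeres, the contractile units of the fibre, from a set of proteins that adult fibres largely replace. The embryo uses the cardiac actin gene, embryonic and perinatal myosin heavy chains, an atrial light chain and cardiac troponin T, and adult fibres switch to their skeletal relatives as they mature. Several of these genes return in regenerating, denervated or stretched muscle.

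The 10 arrays each carried RNA pooled from 5 male C57BL/6 mice. F0 EX animals ran voluntarily and F0 SED animals were sedentary, and muscle of both was taken at 28 weeks of age, with 1 pool for each. They were bred with mates of the same exposure. The F1 and F2 animals were their sedentary descendants of EX or SED ancestry, with muscle taken at 8 weeks and 2 pools for each generation and ancestry. F1 animals that were bred were mated with littermates. Between F0 and the descendants, age, generation and exposure of the EX animals changed together and cannot be told apart, and whole muscle cannot tell fewer cells of a type from less RNA per cell.

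All values are signals of probe sets on the log2 scale of the deposited table, where a difference of 1 is a doubling. Differences were tested with limma across all kept genes, with Benjamini-Hochberg adjusted p-values and a threshold of 0.05. The labels do not say that the pools of a group held different animals, so p-values measure the spread between pools, which may be technical. Where a fit had no term for it, the spread also holds any change of the EX minus SED gap between generations. This applied to F0 against descendants, to F2 against F1 and to ancestry over both generations. All 10 skeletal fibre markers, such as Acta1, Ckm and Myh4, were kept by the filter. Of 10 heart muscle markers, 5 lay below it (Myl7, Nppa, Nppb, Tbx5 and Ryr2). A pair of arrays stood apart. The correlation of an array with the others across genes had a median of 0.974 for F0 SED and 0.979 for F1 EX pool 1, against 0.986 to 0.993 for the rest. The pools of F1 EX were apart by 0.5 or more in 1830 genes, those of the other descendant groups in 279 to 344.

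The promoters of Actc1 and Mybph, the pair with the largest differences between F0 and descendants, and of Myl4, the tested gene that was called lower in F0, are shown as the 250 bases before the RefSeq start site (GRCm38.p6, read along the gene's strand). Actc1 lies at chr2:114052876-114053125 on the minus strand, Mybph at chr1:134193198-134193447 on the plus strand and Myl4 at chr11:104550413-104550662 on the plus strand. Capitals mark a CArG box, the binding sequence of serum response factor, in Actc1, and an MCAT element, bound by TEAD factors, followed by a reversed TATA box in Mybph. The Myl4 sequence held no match.

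Actc1: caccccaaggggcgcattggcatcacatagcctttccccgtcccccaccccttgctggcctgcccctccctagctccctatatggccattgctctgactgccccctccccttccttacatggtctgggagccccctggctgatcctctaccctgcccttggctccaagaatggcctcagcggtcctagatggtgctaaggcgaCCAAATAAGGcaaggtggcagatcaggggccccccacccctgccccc

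Mybph: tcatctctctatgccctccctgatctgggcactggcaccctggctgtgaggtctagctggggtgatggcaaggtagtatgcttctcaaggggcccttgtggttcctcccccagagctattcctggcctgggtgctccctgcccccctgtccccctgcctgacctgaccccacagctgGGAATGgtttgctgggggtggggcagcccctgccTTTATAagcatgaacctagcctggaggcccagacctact

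Myl4: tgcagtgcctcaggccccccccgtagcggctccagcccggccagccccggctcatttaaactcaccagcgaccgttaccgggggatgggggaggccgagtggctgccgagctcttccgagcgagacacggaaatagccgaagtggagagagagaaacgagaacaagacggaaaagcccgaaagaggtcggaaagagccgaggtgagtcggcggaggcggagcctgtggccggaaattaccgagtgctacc

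Motifs were searched on both strands of 300 bases, from 250 before to 50 after the start site. The CArG box of Actc1, CCAAATAAGG, lay at positions -47 to -38 from the start site, and 1.63% of 32851 windows of all genes held a CArG box. Actc1 also had a TATA box (TATAAA) and an E-box (CANNTG, the sequence bound by MyoD-type factors) after its annotated start. In Mybph an E-box at -79 to -74 was followed without a gap by the MCAT element (CATTCC, here read as GGAATG) at -73 to -68, and the reversed TATA box lay at -39 to -34. Across the 7 genes, which have 8 windows because Tnnt2 has 2 start sites, 6 genes held an E-box, as did 72.3% of all windows. An MCAT element was found in 3 genes (Mybph, Tnnt2 and Ankrd1) and in 14.7% of windows, and a TATA box in 4 genes and 13.6% of windows. A MEF2 box was found in Myh8 alone, where it overlapped the TATA match, and in 3.19% of windows. These are letter matches and not measured binding.

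The question of the first comparison was how the genes differed between 28-week F0 muscle and 8-week descendants. Actc1 and Mybph were several-fold lower in F0, in both exposures. Myl4 was lower by a smaller amount and passed the test. Tnnt2 was higher in F0 EX than in every descendant pool and did not pass the test, and Myh3, Myh8 and Ankrd1 did not pass it either.

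Actc1 (probe set 10485982) encodes cardiac alpha-actin, the main actin of the heart's thin filaments and an early actin of skeletal muscle. Its log2 signal was 10.95 in F0 EX and 9.86 in F0 SED. It was 12.75 and 12.69 in the F1 EX pools, 12.84 and 12.73 in F1 SED, 13.16 and 13.21 in F2 EX, and 13.12 and 13.18 in F2 SED. Both F0 arrays lay below every descendant array. The mean of F0 was 10.40 ± 0.78 (SD, n = 2) and that of the descendants 12.96 ± 0.23 (SD, n = 8). These SDs are not replicate spread, since the F0 arrays differ in exposure and the descendants span 4 groups. The fitted difference was -2.56 (SE 0.188, 95% interval -2.97 to -2.15), a level 5.89-fold lower in F0 (interval 4.43 to 7.83). It was the third lowest of 11963 differences, at rank 3, and no p-value is given, since the gene was chosen with results of these arrays known. The interval takes no account of that choice. Within each exposure the difference was -2.0 for EX and -3.11 for SED.

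Mybph (probe set 10349980) encodes myosin binding protein H, a thick filament protein related to the myosin binding proteins C. Its signal was 8.45 in F0 EX and 7.80 in F0 SED. The F1 pools read 10.30 and 10.44 for EX and 10.66 and 10.44 for SED, and the F2 pools 10.89 and 11.01 for EX and 10.93 and 10.83 for SED. As for Actc1, no F0 array reached the lowest descendant array. The mean was 8.12 ± 0.46 (SD, n = 2, EX and SED together) in F0 and 10.69 ± 0.27 (SD, n = 8 over all groups) in the descendants. The fitted difference of -2.57 (SE 0.152, 95% interval -2.90 to -2.23), 5.92-fold lower in F0 (interval 4.70 to 7.45), had rank 2 from the lowest and is likewise given without a p-value. Here too the interval takes no account of the choice of the gene. The difference was -2.21 within EX and -2.92 within SED. Leaving out both arrays that stood apart left -2.0 for Actc1 and -2.27 for Mybph.

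**Figure D1:**
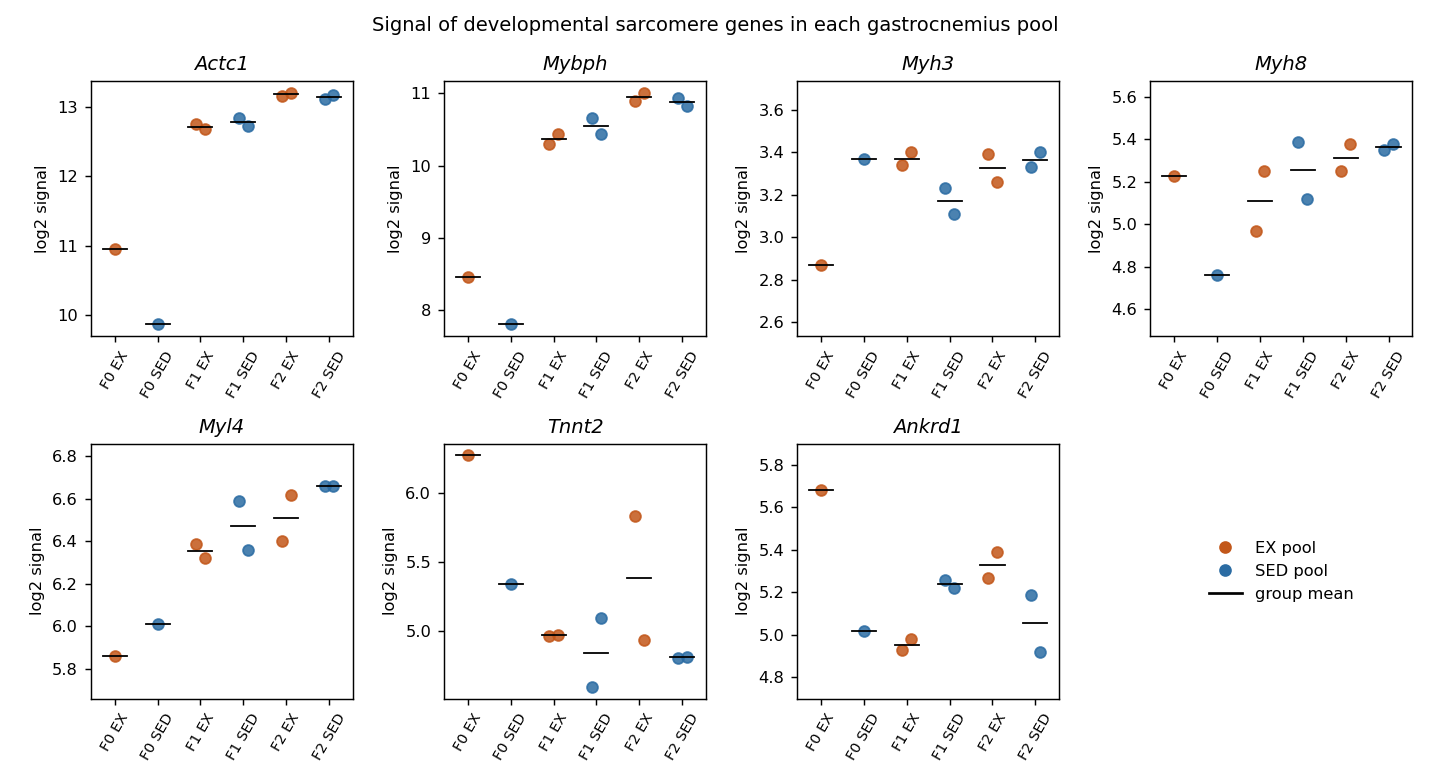
Log2 signal of the 7 genes in each array, by group on the x axis, with 1 point per pool of 5 males, black lines for group means and a separate y scale for each gene. Actc1 and Mybph sit at 9.86 to 10.95 and 7.80 to 8.45 in F0 and above 12.6 and 10.2 in all descendant pools, and Tnnt2 is highest at 6.27 in F0 EX.

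Myl4 (probe set 10381798) encodes the light chain of myosin found in the atria and in embryonic skeletal muscle. Its signal was 5.86 in F0 EX and 6.01 in F0 SED, and it ranged from 6.32 to 6.66 over the descendants. The F1 EX pools were at 6.39 and 6.32, the F1 SED pools at 6.59 and 6.36, the F2 EX pools at 6.40 and 6.62, and both F2 SED pools at 6.66. The F0 arrays thus lay below all 8 descendant arrays. The difference was -0.57 (SE 0.106, limma adjusted p = 0.0161), or 1.48-fold lower in F0, with -0.58 in EX and -0.56 in SED. The call was lost without F0 SED (-0.58, limma adjusted p = 0.125), with limma's array weights (-0.55, adjusted p = 0.35) and without both arrays that stood apart (-0.56, adjusted p = 0.0918).

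For scale, 279 of 11963 genes (2.33%) were called in this comparison by limma, 184 lower in F0 (1.54%) and 95 higher (0.794%). Both F0 arrays lay below every descendant array in 6.65% of genes, Actc1, Mybph and Myl4 among them, and above every one in 5.79%, none of them a gene of the 7. The count of called genes was 86 without F0 SED and 1231 without F0 EX, and it was 584 without F1 EX pool 1. The median difference of all genes was -0.02 and that of the 7 genes -0.27, with the selected Actc1 and Mybph among the 7.

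Tnnt2 (probe set 10350173) encodes cardiac troponin T, which ties the calcium-sensing troponin complex to tropomyosin. It went the other way, with 6.27 in F0 EX and 5.34 in F0 SED. The F1 EX pools read 4.96 and 4.97, the F1 SED pools 4.59 and 5.09, and the F2 SED pools 4.80 and 4.81. The F2 EX pools were far apart, at 5.83 and 4.93, so that pool 1 lay above F0 SED. The difference between F0 and descendants was 0.81 (SE 0.221, limma adjusted p = 0.0867), and it passed the test without F2 EX pool 1 (0.90, adjusted p = 0.0337).

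Myh8 (probe set 10377148) encodes the perinatal myosin heavy chain, and Myh3 (probe set 10377018) the embryonic one. Myh8 read 5.23 in F0 EX but 4.76 in F0 SED, and ranged over 4.97 to 5.39 in F1 and 5.25 to 5.38 in F2. Only F0 SED lay below all descendant pools. The Myh8 difference was -0.27 (SE 0.142, limma adjusted p = 0.362), and it was 0.02 in EX and -0.55 in SED. Myh3 was 2.87 in F0 EX and 3.37 in F0 SED, and the descendants ranged from 3.11 to 3.40. These signals are close to the filter value, and the Myh3 difference of -0.18 (SE 0.135, limma adjusted p = 0.525) did not pass the test. It was -0.48 in EX and 0.11 in SED, and only F0 EX lay below all descendant pools.

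Ankrd1 (probe set 10467191) encodes a repeat protein that binds titin in the sarcomere and that stretch and injury raise in muscle. It was at 5.68 in F0 EX, above the descendants' range of 4.92 to 5.39, and at 5.02 in F0 SED, inside that range. The difference of 0.20 (SE 0.169, limma adjusted p = 0.575) did not pass the test. It was 0.54 within EX and -0.13 within SED.

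None of the adult relatives of these genes was called between F0 and descendants. Acta1, the adult skeletal actin, was 13.48 in F0 EX, 13.13 in F0 SED and 13.32 to 13.54 in the descendants, a difference of -0.19 (95% interval -0.44 to 0.07, limma adjusted p = 0.438). Mybpc1 and Mybpc2, the slow and fast forms of myosin binding protein C, differed by -0.19 (limma adjusted p = 0.518) and -0.11 (limma adjusted p = 0.616). Their intervals were -0.50 to 0.11 and -0.34 to 0.11. Myl1, the adult fast counterpart of Myl4, differed by -0.39 (limma adjusted p = 0.0863, interval -0.62 to -0.16), which overlaps the interval of Myl4 (-0.80 to -0.33). Troponin T of slow fibres (Tnnt1) differed by -0.01 and that of fast fibres (Tnnt3) by -0.15 (limma adjusted p = 0.985 and 0.445). Ankrd2 and Ankrd23, stretch proteins related to Ankrd1, differed by 0.04 and -0.48 (limma adjusted p = 0.912 and 0.112). The probe sequences were not used here, so binding of one actin's or myosin's RNA by another's probes was not tested.

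**Figure D2:**
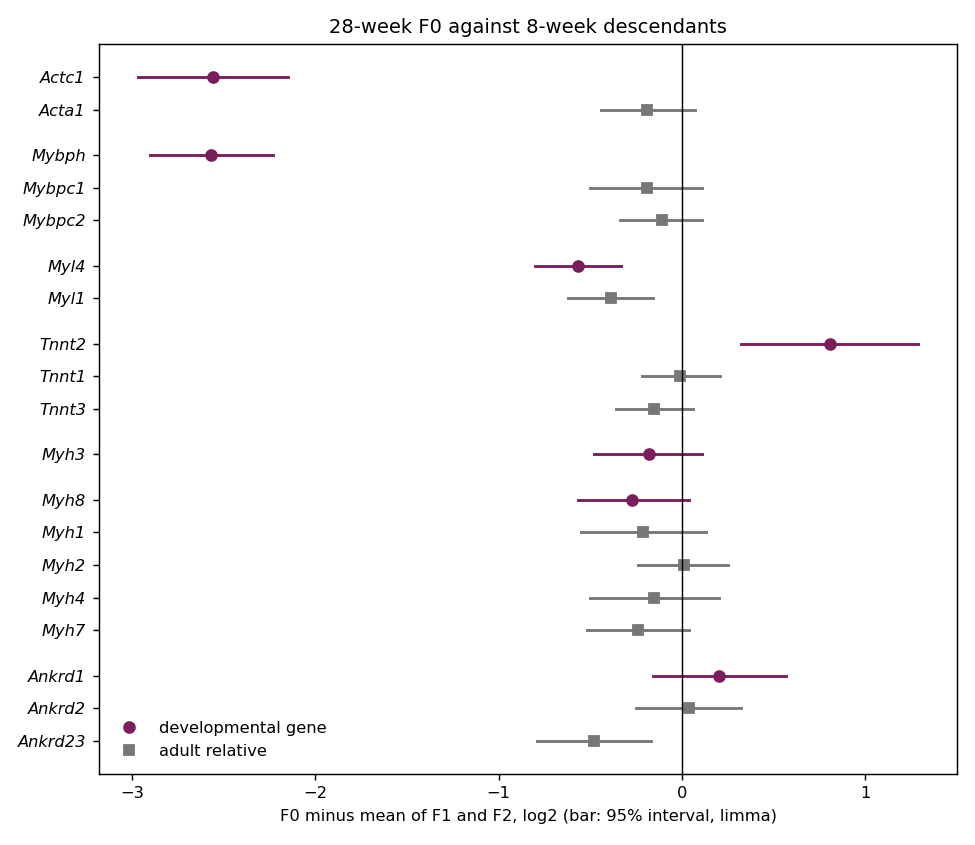
Difference between 28-week F0 and the mean of 8-week F1 and F2 descendants on the log2 scale (x axis), with bars for limma's 95% interval, for the 7 genes (circles) and their adult relatives (squares). Actc1 at -2.56 and Mybph at -2.57 stand far below Acta1 at -0.19 and Mybpc1 at -0.19. The bars of Actc1 and Mybph take no account of the choice of these genes.

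Myh3 and Myh8 lie in a row of skeletal myosin genes on chromosome 11, in the order Myh3, Myh2, Myh1, Myh4, Myh8 and Myh13 in RefSeq. None of the 6 was called between F0 and descendants. The adult fast genes of the row differed by 0.01 for Myh2 of IIa fibres (limma adjusted p = 0.983), -0.21 for Myh1 of IIx fibres (adjusted p = 0.529) and -0.15 for Myh4 of IIb fibres (adjusted p = 0.675). Myh13, the extraocular myosin, differed by -0.10 at a signal close to the filter value (limma adjusted p = 0.763). Myh7, the slow and cardiac myosin on another chromosome, differed by -0.24 (limma adjusted p = 0.356).

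Other gene lists of the muscle give the setting. Of 20 adult fast and shared sarcomere genes 0 were called, with a median of -0.15, and of 12 slow sarcomere genes 0 were called, with a median of -0.12. Of 17 stretch and Z-disc stress genes 0 were called, with a median of 0.01. Ccn2, a matrix growth factor, had the smallest p-value among them at -0.63 (limma adjusted p = 0.0819). Of 21 genes measured under the myogenic programme list, 20 were kept, and Chrng lay below the filter. The 20 include Nckap1 (0.03), which was not a listed gene and entered through a shared synonym in place of H19. The counts and medians of this list, here and below, include Nckap1. In this list 2 genes fell below the descendants, 1 rose above them and the median was -0.18.

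Igf2, the fetal insulin-like growth factor, read 5.75 in F0 EX, 5.53 in F0 SED and 6.23 to 6.80 in the descendants, a difference of -0.93 (SE 0.107, limma adjusted p = 0.00105). Nes, the intermediate filament protein nestin of young fibres and junctions, was 5.92 and 5.94 in F0 against 6.28 to 6.67, a difference of -0.54 (limma adjusted p = 0.0373). Tead4, a factor that binds MCAT elements, was higher in F0 at 5.41 in EX and 6.13 in SED against 4.91 to 5.23, a difference of 0.69 (limma adjusted p = 0.0262). The F0 arrays of Igf2 and Nes lay below, and those of Tead4 above, all descendant arrays. Igf2 passed the test with each array left out in turn, whereas Nes and Tead4 failed it in 7 of 10 such fits, and Tead4 was 0.36 higher without F0 SED (limma adjusted p = 0.33). Myog, the factor myogenin, was -0.36 (limma adjusted p = 0.0976).

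Markers of other cells were read in the same comparison. Of 5 fibroblast markers 2 were called lower in F0, the collagen chains Col1a1 at -2.27 (limma adjusted p = 1.47e-06) and Col3a1 at -1.50 (adjusted p = 4.67e-05). The others, Dcn at -0.31, Lum at -0.18 and Pdgfra at -0.04, were not called. The summed signal of the fibroblast list was 11.44 to 11.79 in F0, 12.65 to 12.88 in F1 and 12.67 to 12.98 in F2 on the log2 scale. Col1a1 alone read 9.51 and 9.56 in F0 and 11.65 to 12.06 in the descendants, so the sum follows this gene in part. The satellite cell list had 0 of 6 called and a median of -0.33, with sums of 8.15 to 8.63 in F0, 8.61 to 8.92 in F1 and 8.84 to 9.05 in F2. The denervated fibre list had 0 of 5 kept genes called and a median of -0.35, with sums of 7.77 to 8.04 in F0, 8.07 to 8.23 in F1 and 8.21 to 8.37 in F2. Chrng, the fetal subunit of the acetylcholine receptor, was below the filter, and its signal is part of the denervated fibre sums. The part of these cells and states in the difference of Actc1, Mybph and Myl4 was not tested.

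The remaining marker lists gave 0 calls. The heart list had 0 of 5 kept genes called and a median of 0.10. Its sums, taken over all 10 markers with the 5 below the filter, were 7.14 to 7.20 in F0, 6.91 to 7.08 in F1 and 6.87 to 7.11 in F2. The smooth muscle list had 0 of 6 called and sums of 9.95 to 9.99, 9.83 to 10.14 and 9.94 to 10.00. Skeletal fibre markers had 0 of 10 called, a median of -0.15 and sums of 15.71 to 15.99 in F0, 15.80 to 16.06 in F1 and 16.04 to 16.09 in F2.

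**Figure D3:**
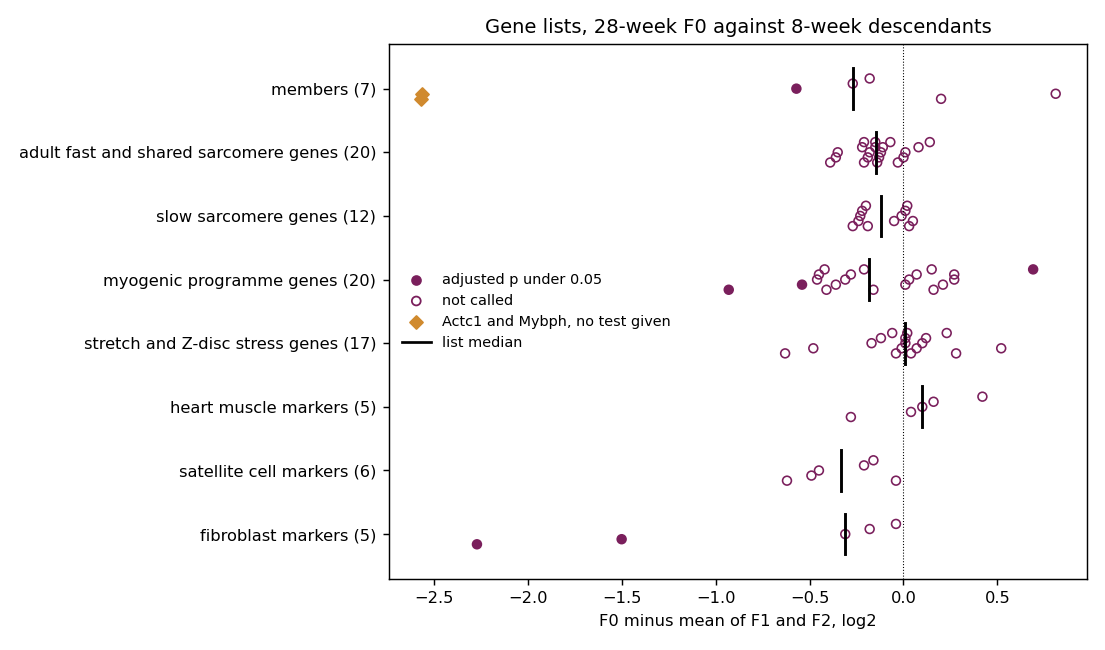
Difference between F0 and descendants on the log2 scale (x axis) for each kept gene of 8 gene lists (rows, with the number of genes), filled where limma's adjusted p was under 0.05, with diamonds for Actc1 and Mybph, which carry no test, and a bar for the list median. Those 2 genes and the collagen genes Col1a1 and Col3a1 lie at -1.50 or lower, whereas the adult sarcomere genes lie between -0.39 and 0.14.

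The next comparison was between F0 EX and F0 SED, the animals that were themselves exposed, with 1 pool each and therefore no test. Of the 7 genes, 4 were higher in the exercised pool by 0.5 or more and 1 was lower. Over all genes 15.3% were higher by that size and 5.38% lower. Actc1 was 1.10 higher, a ratio of 2.14, Tnnt2 0.93 higher, Ankrd1 0.66 higher and Mybph 0.65 higher. Myh8 was 0.47 higher, Myl4 differed by -0.16 and Myh3 by -0.50.

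The scaling of this pair of arrays moved these values. The median of all genes was 0.08 as deposited, 0.22 with arrays centred over all probe sets, 0.01 with quantile normalization and -0.04 with arrays centred over the kept genes. Of the genes past 0.5, 74.0% were higher in F0 EX as deposited, against 90.6%, 57.9% and 50.7% under these scalings. Actc1 stayed above this bound under all of them (0.88 to 1.24), as did Tnnt2 (0.81 to 1.08) and Ankrd1 (0.55 to 0.81), and Mybph was 0.43 with quantile normalization. Myh8 passed it at 0.62 with arrays centred over all probe sets. Myh3 was -0.356 with arrays centred over all probe sets, -0.365 with quantile normalization and -0.62 with arrays centred over the kept genes, so its place past 0.5 depended on the scaling. The number of the 7 genes higher by 0.5 or more was thus 4 as deposited, 5, 3 and 4 under these scalings in the same order. Adult relatives were also higher in the exercised pool, by 0.35 for Acta1, 0.69 for Mybpc1, 0.73 for Myh1 and 0.37 for Myl1. Of 20 adult fast genes 1 (Myh1) was higher by 0.5 or more, and of 12 slow genes 5 were (Myh7, Tnnc1, Tpm3, Mybpc1 and Atp2a2). The F0 SED array is one that stood apart, and with 1 pool its part in these values cannot be told apart from exercise.

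Among the descendants, which were all 8 weeks old, Actc1 and Mybph were higher in F2 than in F1. The genes were named with this contrast known, so the values are a description. Actc1 averaged 12.75 ± 0.06 in F1 and 13.17 ± 0.04 in F2 (SD, n = 4 each, EX and SED pools together). The difference was 0.41, with 0.46 in EX and 0.36 in SED. Mybph averaged 10.46 ± 0.15 in F1 and 10.91 ± 0.08 in F2, a difference of 0.45, with 0.58 in EX and 0.33 in SED. For both genes every F2 pool lay above every F1 pool. This held for 1.77% of all genes, and since the pair was selected on this contrast, nothing is read from that share. In order of level F2 EX and F2 SED came first, then F1 SED and F1 EX, and last F0 EX and F0 SED. The pools of EX and SED overlapped or met within F2 and within F1 for both genes, so those neighbours did not differ beyond their spread.

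The other 5 genes had smaller differences between F2 and F1 with overlapping pools. They were 0.19 for Tnnt2, 0.17 for Myl4, 0.16 for Myh8, 0.10 for Ankrd1 and 0.08 for Myh3. Tnnt2 was -0.04 without F2 EX pool 1. Over all genes limma called 0 (0.0%) in this comparison, with 509 at an unadjusted p under 0.05. Nothing is read from that count, since a share of 0.05 of the 11963 genes would be expected there with no difference. The median over all genes was 0.00 and that of the 7 genes 0.17, which includes the pair selected on this contrast. The median of the adult fast list was 0.06, of the slow list 0.13, of the myogenic list 0.05 and of the stretch list 0.07, with no call in any of them. In the myogenic list the lowest p-values belonged to Igf2 (0.38), Myog (0.34) and Mymk, the fusion factor myomaker (0.49), none of them called (limma adjusted p = 0.9, 0.911 and 0.911).

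The likeness of patterns was measured as Pearson r of the log2 signals over the 8 descendant arrays, a description over few arrays that share generation and ancestry. F1 EX pool 1, which stood apart, is among them, and r was not measured without it. Each gene was compared with 11962 other genes, so the highest values come from a long search over few arrays. Actc1 and Mybph were both selected on their difference between F2 and F1 in these arrays, which by itself raises their r, so nothing about the pair is read from it. Their r was 0.943, and the genes with a higher r to Actc1 were Ccdc32 (0.965) and Dnajc15, a mitochondrial co-chaperone (0.947). The genes most like Mybph were Nmrk2, a nicotinamide riboside kinase of muscle (0.963), Lmo7 (0.959) and the neuregulin receptor Erbb3 (0.954). Nmrk2 differed by 1.10 between F2 and F1 (limma adjusted p = 0.111) but by -0.23 between F0 and the descendants (adjusted p = 0.51). Ccdc32 and Dnajc15 differed by 0.27 and -0.13 between F0 and the descendants (limma adjusted p = 0.198 and 0.62). None of these genes was thus called in the comparison in which Actc1 and Mybph were lowest.

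Values for the other genes of the group are given without a ranking against that pair. Myl4 had an r of 0.706 with Actc1 and 0.732 with Mybph, and Myh8 of 0.625 and 0.795. Both Myh8 and Mybph had their lowest descendant signal in F1 EX pool 1, at 4.97 and 10.30. Tnnt2 had an r of 0.205 with Actc1 and -0.521 with Myl4, and Ankrd1 of 0.367 with Actc1 and -0.521 with Myh3. The highest r of Myl4 was with H4c9 (0.981), Zfp704 (0.967) and 0610040J01Rik (0.960). That of Myh8 was with Fbxo3 (0.981), Usp3 (0.970) and Ppp6c (0.967), and that of Tnnt2 with Ptprm (0.970), Pafah1b2 (0.956) and Snap25 (0.950). Ankrd1 was most like Eapp (0.947), Habp4 (0.939) and Wdfy2 (0.938), and Myh3 most like Gm10570 (0.923), Supt20 (0.913) and Cep120 (0.885).

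The main question of the design was whether exercise of the ancestors left a difference in descendants. None of the 7 genes passed the test for ancestry in F1, in F2, over both generations or for the difference between generations. Limma called 0.0% of all genes in each of these tests, and 584, 532, 597 and 519 genes had an unadjusted p under 0.05. With no difference anywhere, a share of 0.05 of the 11963 genes would be expected there, so nothing is read from these counts. Actc1 differed between EX and SED by -0.06 in F1 (95% interval -0.33 to 0.20) and 0.04 in F2 (-0.23 to 0.30). Mybph differed by -0.18 in F1 (-0.48 to 0.12) and 0.07 in F2 (-0.23 to 0.37). None of these intervals reached the size of the F0 difference of the same gene.

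Over both generations Actc1 differed by -0.01 (interval -0.19 to 0.16), Mybph by -0.05 (-0.27 to 0.16), Myl4 by -0.14 (-0.34 to 0.06), Myh8 by -0.10 (-0.32 to 0.12) and Myh3 by 0.08 (-0.12 to 0.28). The limma adjusted p of the 7 genes lay between 0.888 and 0.996. Tnnt2 had the largest difference of the 7, at 0.35 (-0.06 to 0.77, limma adjusted p = 0.888). It came with 0.58 in F2 (limma adjusted p = 1) and 0.13 in F1, and without F2 EX pool 1 it was 0.13 both over both generations and in F2.

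Ankrd1 was ordered oppositely in the 2 generations. In F1 the SED pools, at 5.26 and 5.22, lay above the EX pools, at 4.93 and 4.98. In F2 the EX pools, at 5.27 and 5.39, lay above the SED pools, at 5.19 and 4.92. The EX minus SED difference was -0.28 (SE 0.132) in F1 and 0.27 (SE 0.132) in F2. The difference of both was 0.55 (SE 0.187, limma adjusted p = 0.919), which did not pass the test, and 707 of 11963 genes (5.91%) showed an opposite order of this kind without overlap. Its relative Ankrd2 had a difference of 0.44 (limma adjusted p = 0.919) and Ankrd23 of 0.21 (adjusted p = 0.919).

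**Figure D4:**
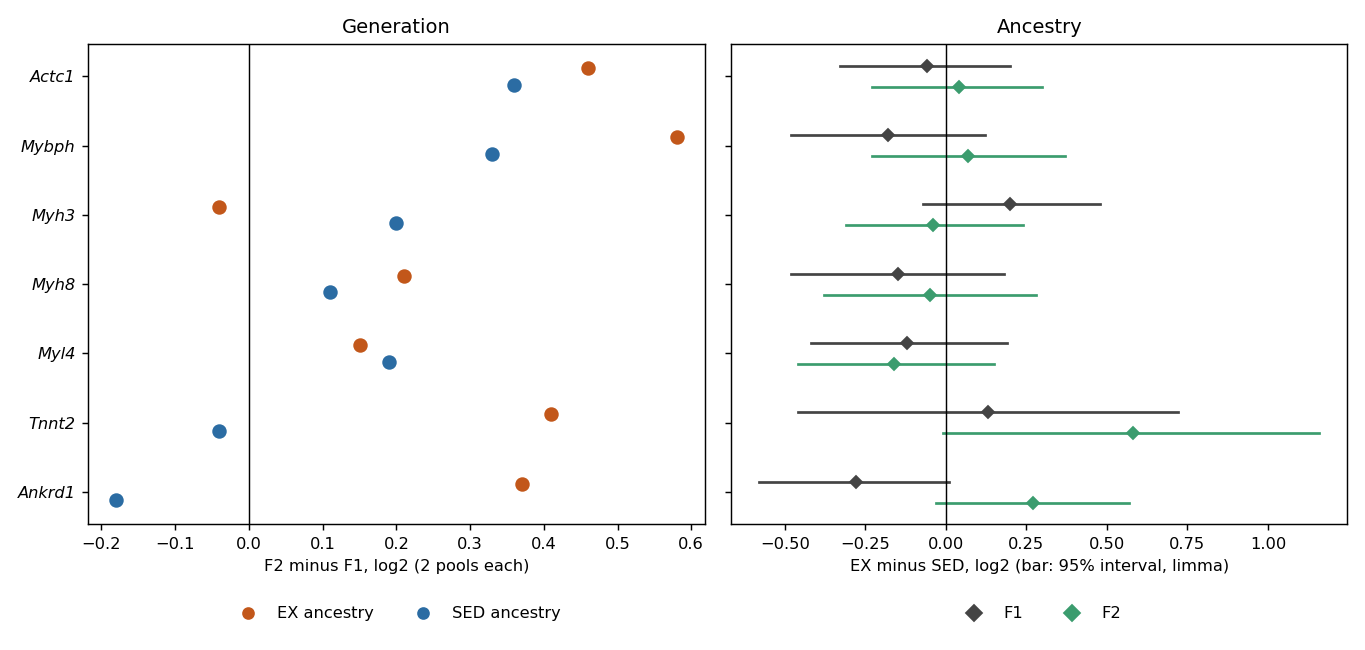
Left, difference between F2 and F1 on the log2 scale for each of the 7 genes, separately for pools of EX and SED ancestry (2 pools in each group). Right, difference between EX and SED ancestry in F1 and in F2 with limma's 95% intervals, in which Actc1 lies at -0.06 and 0.04 and Ankrd1 at -0.28 and 0.27.

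Gene lists around the group were also without calls for ancestry. In the test over both generations the median of the adult fast list was -0.01, of the slow list 0.14, of the myogenic list -0.02 and of the stretch list 0.03, beside 0.01 for all genes and -0.01 for the 7 genes. Of 12 slow genes, 11 were above 0, with 0.29 for both Myh7 and Tnnt1 (limma adjusted p = 0.888 for each). Genes read in the same arrays cannot be taken as independent, so nothing is read from that count. The adult relatives Acta1, Mybpc2 and Myl1 differed by -0.06, 0.01 and 0.06 (limma adjusted p = 0.913, 0.992 and 0.917). The fibroblast list had a median of 0.23 with 0 of 5 called, the satellite cell list 0.01 and the denervated fibre list 0.03.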

How the data were processed

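The 10 Affymetrix arrays measured RNA of gastrocnemius pools. Total RNA, per the labels' protocols, was diluted, pooled from 5 animals per array and made into biotin-labelled sense-strand cDNA. The authors deposited 1 table of log2 signals for 35557 probe sets, and their range of 0.966 to 14.227 is the basis for taking the scale as log2. Affymetrix Expression Console is named in the submitters' processing notes, but the background correction and normalization behind the values, and a genome build, were not stated in those notes or in the labels. Array medians lay between 3.216 and 3.364. Precision is limited by the number of arrays.

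Gene names came from the platform annotation held by GEO, possibly an old one (1 symbol for 21789, several for 1621, none for 12147), and 21698 matched a RefSeq table of GRCm38.p6. For a gene with several probe sets the one with the highest mean was taken, and genes whose mean reached the 40th percentile of gene means were kept. The 7 genes, the lists, the tests and the alternatives were chosen with earlier results of these data known. Named genes are the 7 genes, their adult relatives, up to 4 genes of each list with the smallest p, and the 3 genes with the highest r to each of the 7. Genes listed for more than 1 reason count under each.

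Tests were made with limma 3.58.1 (lmFit and eBayes) in R 4.3.3 and tested on simulated data. For F0 against descendants, a model with additive terms for generation and ancestry was fitted to all 10 arrays, and F0 was contrasted with the average of F1 and F2. Ancestry over both generations and F2 against F1 came from the same model on the 8 descendant arrays, and F1 ancestry, F2 ancestry and their difference from the 4 group means. F0 EX and F0 SED were compared by size. Pool numbers did not pair the arrays, since the correlations of same-numbered pools' deviations lay between -0.111 and 0.064. The alternatives were other scalings, filters and probe set rules, limma's trend, robust and array weight settings, a block on pool number and leaving out arrays. Protein sequences were not used here.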

Additional observations from a re-analysis of the deposited data

Results flagged for a closer look

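Ankrd1 drew attention because its ancestry difference ran one way in every pool of F1 and the other way in every pool of F2. The EX minus SED difference was -0.28 in F1 and 0.27 in F2, with 2 pools in each group. The difference between the generations was 0.55 (SE 0.187), and limma's test of it had an adjusted p of 0.919 and ranged from 0.14 to 1 when each descendant array was left out in turn, with values from 0.42 to 0.69. An opposite order without overlap was seen in 5.91% of all genes.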

How the results depend on the processing

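For Actc1 and Mybph the lower level in F0 kept its direction under all alternatives run, with -3.11 to -2.0 and -2.92 to -2.21 when arrays were left out in turn. The limits lie in the design: F0 has 1 pool per exposure, a descendant group has 2, and 2 arrays stand apart. The count of genes called between F0 and descendants was 38 with array weights and 170 without F1 EX pool 1 and F0 SED, and ran from 86 to 1231 with each array left out in turn. These same leave-one-out fits gave 0 to 1046 for F1 ancestry and 0 to 143 for the difference between generations, the highest both without F1 EX pool 2, and no gene of the 7 was called there. Between F2 and F1 the count of called genes was 2 when limma's trend and robust options were on, and array weights gave 1. Nmrk2 was in both, and the other gene was selected on this contrast, so its call is no test. The F0 pools differed by 0.5 in 1835 genes upward and 644 downward, in 2932 and 305 with arrays centred over all probe sets, and in 1197 and 1162 with arrays centred over the kept genes, a setting chosen after seeing the data. A replicate block on pool number gave 218 calls between F0 and descendants, 0 in the other tests, and changed no call of the 7 genes. Pool numbers only name the arrays.

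Of the values of the 7 genes under the alternatives, 705 kept direction and side of the threshold or, where there was no test, moved by less than the spread between pools. Of the rest 38 turned sign, 17 moved without a test, 3 lost a call and 1 gained one. Among the 705 are the F0 differences of Actc1 and Mybph. For them the side of the threshold is no test, since both genes were chosen with results of these arrays known. The 38 that turned sign were small estimates, none called, and the cause was not tested. For ancestry over both generations they were, with arrays centred over all probe sets, 0.0003 for Actc1 and 0.008 for Ankrd1, with quantile normalization 0.044 and 0.005, and with array weights 0.004 and 0.078, and 0.018 for Mybph. With all 10 arrays the EX minus SED term also took in the F0 pools, which were themselves exposed, so it is not ancestry alone. This term was 0.208 for Actc1, 0.127 for Ankrd1, 0.086 for Mybph, -0.033 for Myh3 and 0.015 for Myh8. F1 ancestry of Actc1 was 0.047 with quantile normalization, and its F2 ancestry -0.016 with arrays centred over the kept genes. F2 ancestry with arrays centred over all probe sets was 0.024 for Myh3 and 0.011 for Myh8, and 0.026 for Myh3 with quantile normalization. The difference between generations was 0.053 for Myl4 with arrays centred over all probe sets and -0.006 for Actc1 with quantile normalization.

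With arrays left out in turn the ranges that crossed 0 were, for F0 against descendants, -0.131 to 0.541 for Ankrd1, -0.478 to 0.109 for Myh3 and -0.55 to 0.019 for Myh8. For ancestry over both generations they were -0.116 to 0.059 for Ankrd1, -0.036 to 0.018 for Actc1 and -0.104 to 0.015 for Mybph. F1 ancestry of Tnnt2 ran from -0.122 to 0.381, and F2 ancestry from -0.113 to 0.014 for Myh8 and -0.102 to 0.03 for Myh3. The difference between generations ran from -0.041 to 0.239 for Myh8, -0.152 to 0.075 for Myl4 and -0.001 to 0.896 for Tnnt2. For F2 against F1, which has no test here, Tnnt2 ran from -0.036 to 0.334, a change of sign within the spread between its pools.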
